A study of Mus musculus with 5 samples.

Results

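The immunoglobulin constant genes and the J chain gene were followed in 3 single-cell libraries of mouse heart and of the lymph nodes that drain it. The 8 genes are the heavy chain constant genes Ighm, Ighd and Igha, the light chain constant genes Igkc, Iglc1, Iglc2 and Iglc3, and Jchain. They were taken by symbol, and each symbol gave 1 row among 31053 gene rows in each of the 3 matrices. All 8 had counts in every library.

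The study compared hearts and mediastinal lymph nodes of C57BL/6 mice at several ages. The heart gave 1 library of sorted non-cardiomyocytes from mice aged 2 months and 1 from mice aged 18 months, after digestion with collagenase II and dispase II, with a 3′ kit (v3). The lymph nodes gave 1 library of sorted CD44-high CD4+ and CD8+ T cells that pooled mice of 2, 6, 12 and 18 months, with a 5′ kit (v2) and T cell receptor contigs. Mice of all groups were of the same strain, the labels name aging as the only treatment, and they give no sex and no number of animals. Antibodies that carry a barcode (hashtags) marked the cells before pooling, 8 of them in the lymph node library and 4 in the hearts. In the hearts Hashtag09 and Hashtag10 were those of the 2-month library and Hashtag11 and Hashtag12 those of the 18-month library. The sources used here tie no lymph node hashtag to an age and no hashtag to an animal, so hashtags were described one by one and not read as replicates. Sorted cells were combined at different ratios before loading, per the labels, so a difference in the share of a cell type between libraries and a difference in that mixing cannot be told apart.

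Antibodies pair heavy with light chains, and the constant part of the heavy chain sets the class. A naive B cell makes IgM and IgD from a shared long transcript by splicing, with Ighm and Ighd as the constant parts, and class switching deletes them in favour of an Ighg, Ighe or Igha gene further along the chromosome. A B cell usually keeps a single light chain, kappa (Igkc) or, far less often in mice, lambda (Iglc genes). Plasma cells secrete antibody in bulk, and the J chain links the units of secreted IgM and IgA.

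On GRCm38 with GENCODE M21 gene models, Ighm (chr12:113418558-113422730), Ighd (chr12:113406604-113416324) and Igha (chr12:113254830-113260236) lie on the minus strand of chromosome 12. Igkc lies on the plus strand of chromosome 6 (chr6:70726435-70726966). Jchain is a protein-coding gene of the minus strand of chromosome 5 (chr5:88519809-88527891). Iglc1 (chr16:19061618-19062071), Iglc3 (chr16:19065230-19065681) and Iglc2 (chr16:19198396-19200351) lie on the minus strand of chromosome 16.

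The lambda constant genes are related copies, and counting reads to 1 of them rests on the bases in which they differ. The first 300 bases of their coding sequences, from the GENCODE M21 transcripts, are shown 5′ to 3′ from the first shared codon. Capitals mark bases that are unlike Iglc2 in a pairwise alignment.
Iglc2: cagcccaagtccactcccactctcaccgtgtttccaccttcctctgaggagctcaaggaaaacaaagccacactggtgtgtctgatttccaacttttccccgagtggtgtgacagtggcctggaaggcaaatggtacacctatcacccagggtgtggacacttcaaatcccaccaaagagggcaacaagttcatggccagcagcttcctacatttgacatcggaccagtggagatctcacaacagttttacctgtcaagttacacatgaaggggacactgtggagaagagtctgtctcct
Iglc3: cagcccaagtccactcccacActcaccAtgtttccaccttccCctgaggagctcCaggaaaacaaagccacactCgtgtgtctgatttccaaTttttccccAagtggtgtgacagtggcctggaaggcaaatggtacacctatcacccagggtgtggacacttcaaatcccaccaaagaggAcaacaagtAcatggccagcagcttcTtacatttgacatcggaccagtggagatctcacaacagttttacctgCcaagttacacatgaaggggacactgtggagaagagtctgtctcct
Iglc1: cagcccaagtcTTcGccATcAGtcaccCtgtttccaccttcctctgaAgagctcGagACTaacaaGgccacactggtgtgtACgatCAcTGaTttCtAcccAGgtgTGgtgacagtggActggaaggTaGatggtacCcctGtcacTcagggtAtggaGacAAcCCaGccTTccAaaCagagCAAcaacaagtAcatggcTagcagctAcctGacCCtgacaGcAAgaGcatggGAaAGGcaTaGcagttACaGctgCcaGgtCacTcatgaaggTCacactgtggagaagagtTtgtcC
The stretches shown are chr16:19198551-19198850 for Iglc2, chr16:19065380-19065679 for Iglc3 and chr16:19061770-19062069 for Iglc1, all on the minus strand of GRCm38. Over their whole coding sequences of 312 bases each, Iglc2 and Iglc3 were identical at 96.5% of aligned coding bases, and Iglc3 had 11 bases unlike Iglc2. Iglc1 (315 bases) was identical to Iglc2 at 74.1% and to Iglc3 at 75.1%. After the stop codon, where reads of a 3′ kit mostly fall, Iglc2 and Iglc3 matched at 90% of aligned bases (126 of 140), against 55.2% for Iglc1 and Iglc2. UMIs (counted molecules) of Iglc2 and Iglc3 are therefore given as uncertain between the 2 genes, and only their sum with Iglc1 enters a light chain call.

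The 2-month heart library kept 10910 cells with a median of 8033 UMIs and 102618684 UMIs in all. The 18-month library kept 7816 cells with a median of 4371 UMIs and 53597057 UMIs in all. The lymph node library kept 12908 cells with a median of 2385.5 UMIs and 46517926 UMIs in all. The 2 heart libraries shared 42 cell barcodes, the lymph node shared 7 with the 2-month heart and 0 with the 18-month heart. Cell classes were rebuilt from marker genes without any immunoglobulin gene, and each is named for the type it is like (B cell-like and so on); the suffix is left out below. Although the heart libraries are labelled non-cardiomyocytes, a cluster with all 6 cardiomyocyte markers held 687 and 146 cells.

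The 8 genes together took 1.30% of all heart UMIs at 2 months and 0.399% at 18 months. Most of this lay in few cells at 2 months, when plasma cells held 80.8% of Ighm, 82.4% of Igkc and 97.7% of Jchain UMIs. At 18 months plasma cells held 28.1% of Ighm, 39.7% of Igkc and 94.9% of Jchain UMIs, and B cells held 41.1% of Ighm and 39.0% of Igkc. Igha UMIs lay in plasma cells in both libraries, at 92.2% and 90.5%. Ighd UMIs lay mostly in B cells, at 56.8% and 62.2%. All heart values carry counting error only: intervals are exact 95% intervals (Poisson for levels, conditional binomial for ratios, Clopper-Pearson for shares). With 1 library per age no difference between ages has a replicate check, and no test between ages was made.

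B cells were the cells of the 1 cluster named B cell, which carried all 8 B cell markers, with at least 1 UMI of Cd79a (the signalling partner of the B cell receptor). They numbered 927 of the cluster's 929 cells at 2 months and 987 of 989 at 18 months, or 8.50% and 12.6% of kept cells, with medians of 8968 and 4351 UMIs. Another cluster, of 290 and 228 cells, also carried all 8 markers but was left unnamed, since it carried 5 markers of another lineage. That unnamed cluster held 27.1% and 20.4% of Ighd UMIs and is not among the B cells below. In the B cells Ighd and Igha were higher at 18 months and Jchain was lower, while Ighm, Igkc and the 3 lambda genes differed by less than 1.5-fold. A gene was called higher or lower where the ratio of its level (CPM, its UMIs per 1000000 UMIs of the same cells) was at least 1.5-fold and its interval left out 0 on the log2 scale. By that rule 2 of 8 genes were higher and 1 was lower, beside 17.7% and 6.22% of the 10694 genes tested in the same cells (23.9% in either direction). The median log2 ratio was 0.21 over the 8 genes and 0.20 over all genes tested.

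Ighm, the constant part of IgM, stood at 3061 CPM at 2 months and 3524 CPM at 18 months, a log2 ratio of 0.20 (0.18 to 0.23). The median B cell held 23 Ighm UMIs at 2 months and 14 at 18 months, and 99.9% and 99.8% of B cells had at least 1. Ighd, the constant part of IgD, stood at 309 CPM and 853 CPM, a log2 ratio of 1.47 (1.40 to 1.54). Ighd was seen in 74.97% of B cells at 2 months and in 88.6% at 18 months, although the 18-month cells were the shallower ones.

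Igha, the constant part of IgA, stood at 6.40 CPM (59 UMIs) at 2 months and 25.2 CPM (121 UMIs) at 18 months, a log2 ratio of 1.98 (1.52 to 2.45). Its UMIs were spread thinly: 5.39% and 9.32% of B cells had one, and the richest cell held 5 and 14. In vascular endothelial cells, which make no antibody, Igha stood at 2.12 CPM and 16.9 CPM. The level in B cells was above that of a class that should lack the gene in both libraries, and it was higher at 18 months in both classes. With free RNA estimated at 4.01% and 3.16% of B cell UMIs, subtraction left 50 of the 59 and 105 of the 121 Igha UMIs, a log2 ratio of 2.01. For Jchain the same estimate exceeded the count at 2 months (372 against 232 UMIs). The part of free RNA in the Igha of B cells was not tested.

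Igkc, the kappa chain, stood at 9313 CPM and 10893 CPM, a log2 ratio of 0.23 (0.21 to 0.24). Iglc1 stood at 788 CPM and 1016 CPM (0.37, 0.31 to 0.42), Iglc2 at 1225 CPM and 1240 CPM (0.02, -0.03 to 0.06) and Iglc3 at 730 CPM and 839 CPM (0.20, 0.14 to 0.26). None of these 4 light chain ratios reached 1.5-fold, and they lay close to the median of all genes.

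Jchain stood at 25.2 CPM (232 UMIs) at 2 months and 8.32 CPM (40 UMIs) at 18 months, a log2 ratio of -1.60 (-2.12 to -1.11). It was seen in 20.1% and 3.04% of B cells. Fibroblasts, which lack the gene, had a Jchain UMI in 20.02% and 4.03% of cells at medians of 12440.5 and 11480.5 UMIs, and vascular endothelial cells stood at 64.4 CPM and 8.79 CPM. At 18 months the B cell level of 8.32 CPM (5.94 to 11.3) was above the 3.47 CPM of fibroblasts, 3.14 CPM of T cells, 2.49 CPM of macrophages and 2.00 CPM of dendritic cells. It was not above the 9.66 CPM of pericytes (3 UMIs), the 8.79 CPM of vascular endothelial cells or the 8.33 CPM of neutrophils. Cardiomyocytes, at 7.65 CPM (4 UMIs), lay inside its interval. At 2 months the B cell level lay near the 24.4 CPM of macrophages, 24.2 CPM of T cells and 26.4 CPM of ILC2. The part of free RNA in the Jchain of B cells was not tested. The same subtraction estimated 372 free Jchain UMIs at 2 months, more than the 232 counted, so it gave no ratio, and it left 27 of 40 at 18 months.

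**Figure D1:**
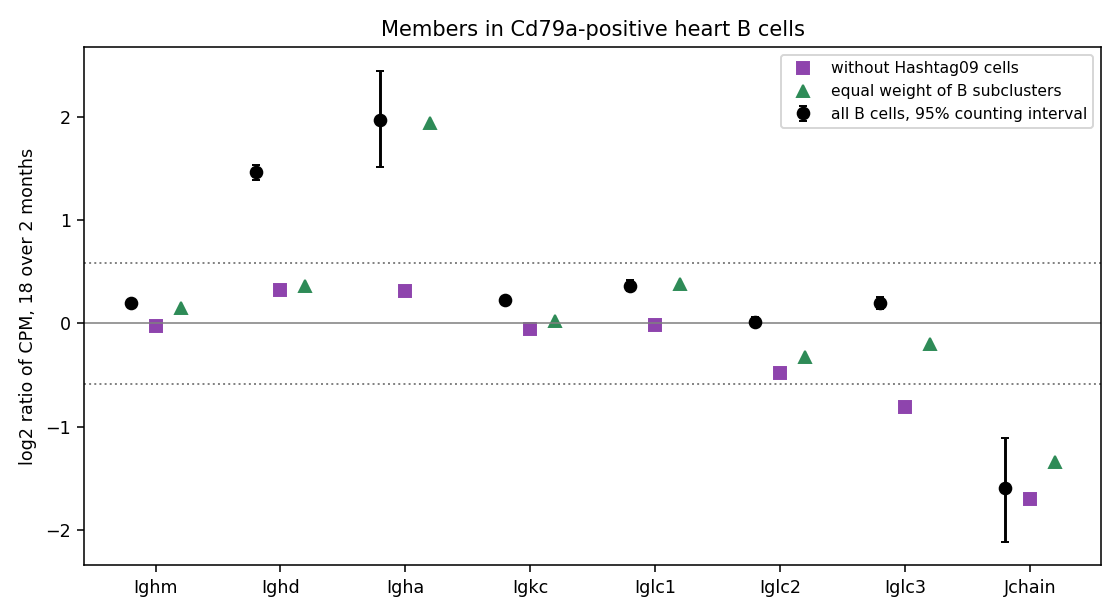
Log2 ratio of the CPM at 18 over 2 months for each of the 8 genes in heart B cells: circles are all B cells with 95% counting intervals, squares leave out the Hashtag09 cells, triangles weight the 3 B cell subclusters equally, and dotted lines mark 1.5-fold. Ighd and Igha lie above the upper dotted line over all B cells and below it without Hashtag09, and Jchain lies below the lower line in all 3 settings.

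Scaling moved the near-zero ratios. With TMM factors over the genes of these B cells, all ratios shifted by 0.23, and Ighm became -0.03, Iglc2 -0.21 and Iglc3 -0.03, and the interval of Igkc held 0, while the calls of Ighd, Igha and Jchain were as before. So no direction is given for Ighm, Igkc, Iglc2 or Iglc3.

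The 2 libraries differed in which B cells they held. Clustering of the B cells alone gave 3 subclusters. The first, led by Hspa1b, Hspa1a and Vpreb3, held 8.85% of B cells at 2 months (82 cells) and 65.5% at 18 months (646 cells). The second, led by Egr3 and Satb1, held 419 and 267 cells. The third, led by S100a6, S100a4 and Itgb1, held 426 and 74 cells, and 424 of its 2-month cells carried Hashtag09.

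Ighd differed more between subclusters than between ages. Its level was 821 and 1051 CPM (2 and 18 months) in the first subcluster, 613 and 784 CPM in the second and 103 and 149 CPM in the third. The log2 ratios within subclusters were 0.36 (0.18 to 0.53), 0.35 (0.24 to 0.46) and 0.52 (0.20 to 0.83), so Ighd was called in none of the 3. Over all B cells there were 10.1 Ighd UMIs per 100 Ighm UMIs at 2 months and 24.2 at 18 months, a log2 ratio of 1.26 (1.19 to 1.34). Within subclusters this log2 ratio was 0.36 (0.17 to 0.55), 0.22 (0.09 to 0.34) and 0.21 (-0.11 to 0.52), and the mean of the 3 with equal weights was 0.28.

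Igha was higher at 18 months in the second subcluster (4.36 and 29.9 CPM, log2 2.78, 1.87 to 3.77) and in the third (7.43 and 30.3 CPM, log2 2.03, 1.18 to 2.83). In the first it stood at 8.35 and 21.7 CPM with only 3 UMIs at 2 months, and its interval held 0. Jchain was lower in the first (30.6 and 5.34 CPM) and second (31.5 and 8.98 CPM) but stood at 21.2 and 19.7 CPM in the third. Iglc1 was higher in the third only by the call rule (875 and 1615 CPM, log2 0.88, 0.79 to 0.98); in the other 2 its interval held 0. Of the 8 genes, none was higher and 1 lower in the first subcluster, beside 2.04% and 3.09% of genes tested there (5.12% in either direction). In the second 1 was higher and 1 lower, beside 10.6% and 5.22% (15.9%). In the third 2 were higher and none lower, beside 9.97% and 3.18% (13.1%).

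One hashtag carried most 2-month B cells. Hashtag09 marked 866 of them and Hashtag10 59, while at 18 months Hashtag11 marked 410 and Hashtag12 557. Ighd stood at 296 CPM under Hashtag09, 709 under Hashtag10, 855 under Hashtag11 and 855 under Hashtag12. Ighd UMIs per 100 Ighm UMIs were 9.74, 19.1, 24.6 and 24.1 in the same order. Igha stood at 5.94, 22.5, 19.7 and 29.0 CPM, and Jchain at 25.1, 26.2, 8.08 and 8.67 CPM. In Ighd and Igha, the Hashtag10 cells lay nearer to the 18-month hashtags than to Hashtag09, and in Jchain they lay with Hashtag09. The Hashtag10 levels of Igha and Jchain rest on few UMIs in 59 cells, and no interval is given for them.

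Without the Hashtag09 cells, no gene was called higher: the log2 ratio was 0.32 for Ighd and 0.31 for Igha, and 0.35 for Ighd against Ighm. Jchain (-1.70) was still lower and Iglc3 (-0.81) was then called lower. The calls of Ighd and Igha as higher at 18 months were thus not kept without Hashtag09. That setting left 59 B cells of Hashtag10 and 2 with no called hashtag at 2 months. Igha had only 59 UMIs in all 927 B cells of 2 months, so its ratio in these few cells is uncertain. The share of all genes called in this setting is not given.

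The lists of B cell genes that moved with these values were as follows. Beside each count stand the shares of all genes tested in these B cells, 17.7% higher and 6.22% lower at 18 months. Of 9 immunoglobulin receptor genes 8 were tested and 5 were higher at 18 months: Fcmr, the IgM receptor (482 and 777 CPM, log2 0.69), Fcer2a, the low-affinity IgE receptor CD23 (186 and 369 CPM, 0.99), Fcrla (1.08), Fcgr2b (0.64) and Pigr (0.85); none was lower, and the list's median was 0.66. Of 9 mature B cell genes 4 were higher and none lower, among them Cd55 (1.18) and again Fcer2a, with a median of 0.57. Of the 5 not called, Ms4a1 (-0.49, -0.53 to -0.44) and Cr2 (-0.24, -0.38 to -0.10) lay below 0. Of 8 genes of B1 and innate-like B cells none was higher and 5 were lower, with a median of -1.21: Cd5 (-2.35, 49 and 5 UMIs), Plscr1 (-1.56), Bhlhe41 (-1.44), Itgam (-1.23) and Zbtb32 (-1.19). Zbtb32 is also among the leading genes of the third subcluster, whose share differed between the libraries.

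Of 19 secretory genes 18 were tested, and 4 were lower, namely Derl3 (11.4 and 1.04 CPM), Hsp90b1 (662 and 368 CPM), Pdia4 (199 and 110 CPM) and Xbp1 (80.8 and 53.3 CPM), and Sdc1 was higher (1.08 and 5.20 CPM, 10 and 25 UMIs); the median was -0.33. Xbp1 is the transcription factor that expands the secretory machinery of plasma cells. Of 6 class switching genes, Bach2 was higher (45.6 and 153 CPM, log2 1.75), and Ung (-0.66) and Batf (-0.80) were lower. Cd79a (0.27) and Cd79b (0.42) were not called. Of the 4 surrogate light chain genes only Vpreb3 was tested, and it was higher (89.4 and 244 CPM, log2 1.45); it is also a leading gene of the first subcluster. The part of B cell makeup in the values of the 8 genes was not tested beyond the subclusters and hashtags above.

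Isotype was read per cell as the class that held at least 3 UMIs and at least 80% of the cell's constant heavy chain UMIs, with Ighm and Ighd as 1 unswitched class. Nearly all heart B cells were unswitched. At 2 months 923 of 927 cells were IgM/IgD and 4 were IgG (0.431%, 0.118 to 1.10). No IgA or IgE cell was called among the 927, which allows up to 0.324%. At 18 months 976 of 978 called cells were IgM/IgD, 1 was IgA and 1 was IgG (0.204% switched together). A further 4 cells at 18 months were mixed and 5 had too few UMIs.

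The 4 IgG cells of 2 months were alike. Each led with Ighg2b, at 15 to 32 UMIs, with 0 to 4 Ighm UMIs and 82 to 161 Igkc UMIs. All 4 lay in the third subcluster and carried Hashtag09. The IgG cell of 18 months had 39 Ighg3 UMIs and 9 Ighm UMIs, and the IgA cell had 14 Igha UMIs, 2 Ighm UMIs and 4 Jchain UMIs. No UMI of Ighg1 or Ighe was seen in heart B cells of either age. Ighg2b stood at 11.4 CPM (105 UMIs) and 5.83 CPM (28 UMIs), of which the 5 richest cells held 88.6% and 60.7%. Ighg3 stood at 9.54 and 13.1 CPM with an interval that held 0, and Ighg2c gave 12 and 2 UMIs.

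Light chains were called by the same limits. At 2 months 607 B cells were kappa, 81 were lambda and 239 were mixed, with under 80% of their light chain UMIs from either type, so lambda made up 11.8% (9.46 to 14.4) of 688 called cells. At 18 months 618 were kappa, 47 lambda and 321 mixed, so lambda made up 7.07% (5.24 to 9.29) of 665. The mixed cells were a large group in both libraries, and these shares leave them out. Iglc2 UMIs were seen in 96.9% and 90.5% of all B cells, and Iglc3 UMIs in 93.4% and 89.2%. Cells called kappa thus mostly held lambda constant UMIs too, and how well the calls read the light chain was not tested. The gap was widest in the third subcluster, where 54 of 323 called cells were lambda at 2 months (16.7%, 12.8 to 21.2) and 3 of 56 at 18 months (5.36%, 1.12 to 14.9). In the first subcluster the shares were 13.04% (6 of 46) and 7.75% (31 of 400), and in the second 6.58% and 6.22%. By hashtag, lambda made up 12.1% of called cells under Hashtag09, 6.25% under Hashtag10 (2 cells), 7.52% under Hashtag11 and 6.74% under Hashtag12.

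Plasma cells were taken as heart cells with at least 10 Jchain UMIs, in any cluster. This limit uses Jchain, so Jchain values of these cells describe the choice and are no finding. There were 61 such cells at 2 months (0.559% of kept cells, 0.428 to 0.718) and 8 at 18 months (0.102%, 0.0442 to 0.202). Their Jchain counts ran from 25 to 4461 with a median of 1681 at 2 months, and from 20 to 1282 with a median of 426 at 18 months. The highest counts just outside the limit were 9 and 5. A limit of 5 UMIs gave 63 and 9 cells, and a limit of 30 gave 60 and 7.

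Plasma cell markers that the limit did not use were then counted. Xbp1 was seen in 61 and 8 cells, Mzb1 in 59 and 8, Derl3 in 56 and 8, Sdc1 (CD138, the classic surface marker) in 59 and 5, and Tnfrsf17 (the survival receptor BCMA) in 50 and 6. At least 3 of the 7 plasma markers were seen in 59 of 61 and in 8 of 8 cells. Among cells over 15000 UMIs, it was 55 of 55 and 6 of 6 plasma cells, at medians of 41171 and 29704.5 UMIs, and 37.03% (34.9 to 39.2) of 1966 and 20.9% (18.2 to 23.9) of 812 other cells, at medians of 19052 and 19136 UMIs. In those other cells Xbp1 was seen in 93.4% and 84.9%, Sdc1 in 25.2% and 11.9%, Derl3 in 4.22% and 1.72% and Tnfrsf17 in 2.19% and 2.34%. The 18-month cell with 20 Jchain UMIs lay in a cycling cluster, with 229 Ighm UMIs and immunoglobulin at 1.46% of its 50281 UMIs, so it stood apart from the other 7.

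Plasma cells were deep, with medians of 39875 and 25137 UMIs, and immunoglobulin genes and Jchain took a median of 47.1% and 45.5% of their UMIs. A stricter cell filter, of at most 15000 UMIs and 8% mitochondrial UMIs, left 5 and 2 of them: 55 and 6 were lost to the UMI limit alone. Clustering without immunoglobulin genes placed 35 and 4 of them in the dendritic cell cluster and 16 and 1 in an unnamed cluster that carried both B cell and macrophage markers. At least 10 UMIs of C1qa, a macrophage gene, were seen in 27 and 2 of them, and its part in their values was not tested. Without the cells of that unnamed cluster, IgM/IgD made up 97.8% and 66.7% of called plasma cells.

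IgM was the main class of heart plasma cells at 2 months. By the call, 60 of 61 were IgM/IgD and 1 was IgA, with 2317 Igha and 4 Ighm UMIs. At 18 months 5 of 8 were IgM/IgD, 2 were IgA and 1 was mixed. The 2 IgA cells held 2824 and 1338 Igha UMIs with 1 Ighm UMI each, and the mixed cell held 1093 Igha UMIs, 1150 Ighg2b UMIs and no Ighm UMI. IgM/IgD thus made up 98.4% (91.2 to 99.96) of called cells at 2 months and 71.4% (29.0 to 96.3) of 7 called cells at 18 months. With the mixed cell counted, it made up 62.5% (24.5 to 91.5) of the 8. The 5 IgM/IgD cells include the cell with 20 Jchain UMIs. With so few cells the intervals overlap, and they take each cell as independent.

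Ighm ran from 4 to 10729 UMIs per plasma cell at 2 months with a median of 3450, and from 0 to 4693 at 18 months with a median of 680.5. Igkc ran from 3 to 24232 with a median of 11442, and from 401 to 13611 with a median of 6466.5. Ighd was low in these cells, with at most 14 and 12 UMIs and a median of 0 in both libraries. The plasma cells of 18 months had fewer UMIs per cell in these genes and in all.

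Light chains were kappa in 56 and lambda in 5 plasma cells at 2 months, and kappa in all 8 at 18 months, where a count of 0 lambda cells allows a share of up to 37.5%. The lambda cells each used mainly 1 constant gene. Iglc2 led in 3 of them, at 10542, 13081 and 886 UMIs, and Iglc3 led in the other 2, at 14378 and 12194. The 2 cells with Iglc3 carried 144 and 1333 Iglc1 UMIs beside it, and a cell with Iglc2 carried 722. Iglc1 led in none.

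**Figure D2:**
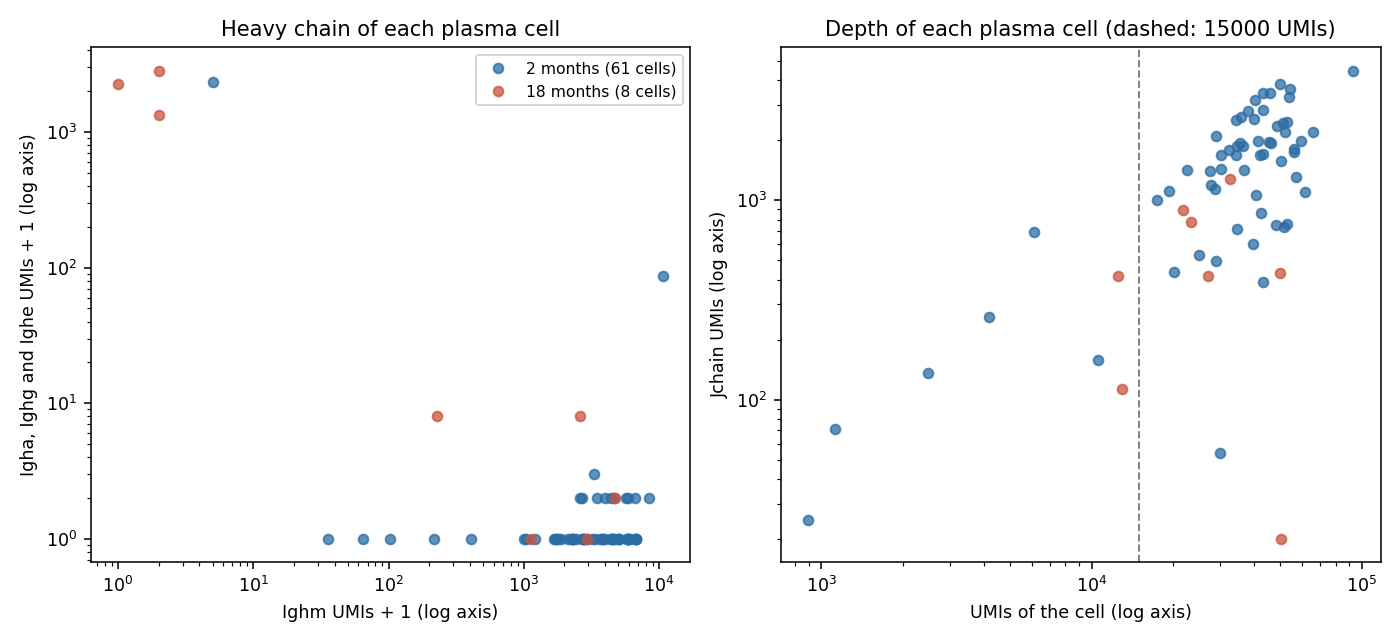
Left, Ighm UMIs + 1 against the summed Igha, Ighg and Ighe UMIs + 1 of each heart plasma cell, and right, all UMIs of the cell against its Jchain UMIs, on log axes, with 61 cells of the 2-month and 8 of the 18-month library; each point is 1 cell. In the left panel 4 cells with at most 4 Ighm UMIs stand at the upper left, 1 of 2 months and 3 of 18 months, and in the right panel 55 and 6 cells lie right of the dashed line at 15000 UMIs.

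Plasma cells of 1 library can stem from few B cells, so the variable segments were read beside the constant genes. The heavy segment with most UMIs and the segment with most UMIs of the called light chain, each with at least 3 UMIs, gave a pair in 51 cells at 2 months and in 7 at 18 months. At 2 months there were 26 pairs, 8 of them in more than 1 cell, and these 8 held 33 cells. At 18 months all 7 pairs differed. The pair Ighv7-1 with Igkv15-103 was found in 12 cells, of which 8 carried Hashtag09, 2 Hashtag10 and 2 no called hashtag, and their Ighm counts ran from 2325 to 6774. The pair Ighv11-2 with Igkv14-126 was found in 7 cells at 2 months, in 1 at 18 months and in 1 lymph node barcode, and Ighv12-3 with Igkv4-91 in 1 cell at 2 months and 1 lymph node barcode. Both of these last pairs are known from B1 cells that bind phosphatidylcholine. The 60 IgM cells of 2 months may therefore not be 60 independent cells. A shared pair does not show a shared clone, since the junctions were not read.

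**Figure D3:**
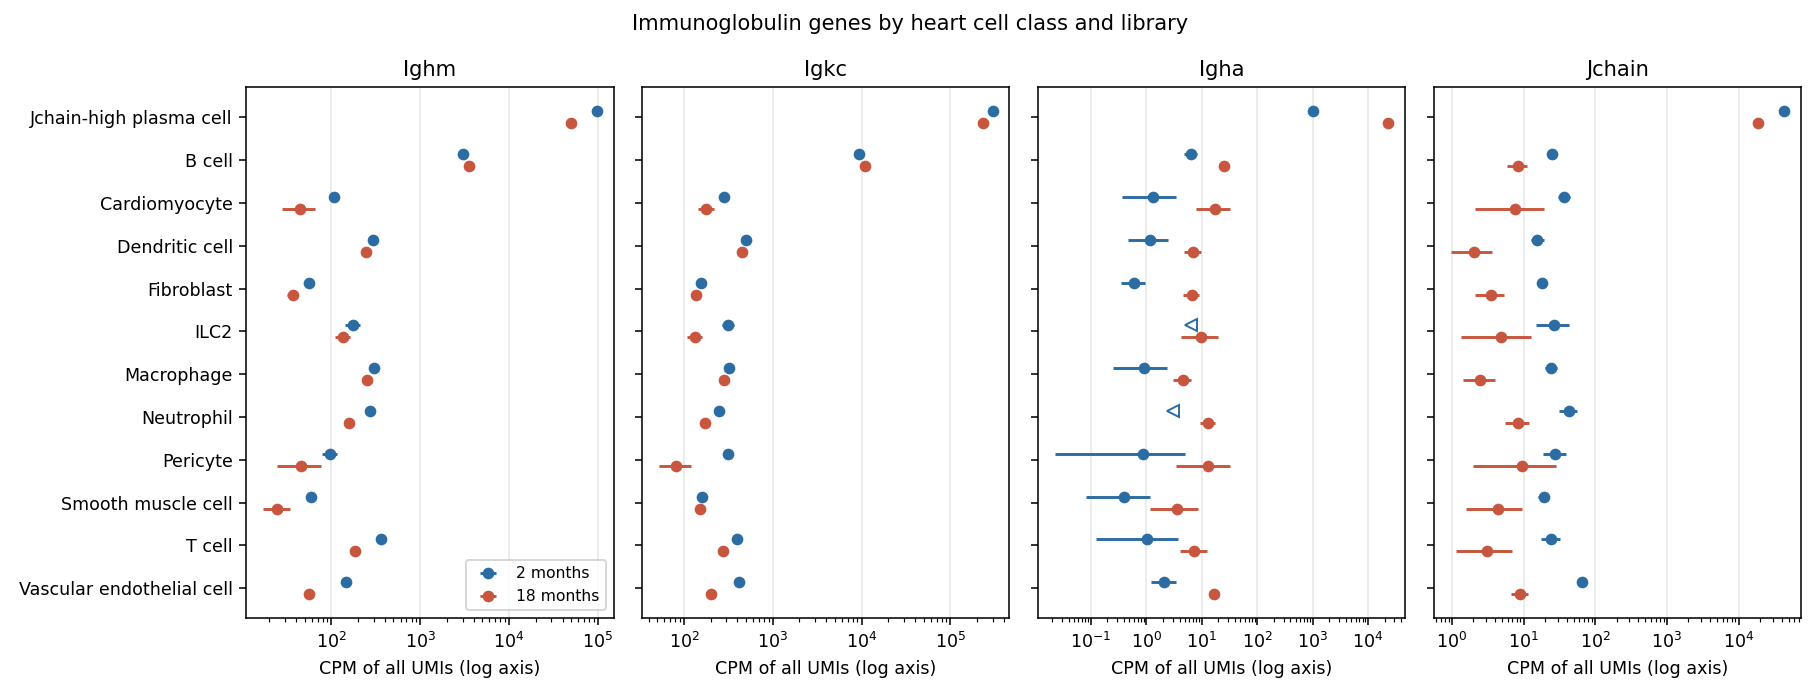
Level of Ighm, Igkc, Igha and Jchain in the heart cell classes of both libraries, as CPM on a log axis with exact 95% Poisson intervals. Open triangles mark the upper end of that interval for a count of 0, and cells with at least 10 Jchain UMIs form the plasma cell class only. In the 10 classes other than B and plasma cells, Jchain lies lower at 18 months, and Igha lies higher wherever it was counted at 2 months.

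RNA freed from broken cells enters all droplets of a library, so the 8 genes were also counted in the 10 other named classes with at least 50 cells in each library. At 2 months 77.2% of all cells had an Igkc UMI, 51.7% an Ighm UMI, 19.0% a Jchain UMI and 1.41% an Igha UMI. At 18 months these shares were 50.8%, 43.3%, 2.81% and 6.29%. Jchain and Igha thus moved in opposite ways over the whole libraries.

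Across the 10 classes Jchain and Igha again went in opposite directions, and Iglc2, Ighd and Ighm were also called in most classes. Jchain had a lower level at 18 months in 9 classes by the call rule, with a median log2 ratio of -2.40 (range -3.29 to -1.51). Igha was higher in all 8 classes where a ratio could be given, with a median of 3.08 (2.30 to 3.86). Many of these ratios rest on few Igha UMIs at 2 and 18 months: 1 and 4 in pericytes, which gave the 3.86. There were 3 and 5 in smooth muscle cells, 4 and 9 in cardiomyocytes and 2 and 14 in T cells, against 16 and 106 in vascular endothelial cells. The other classes, ILC2 and neutrophils, had 0 Igha UMIs at 2 months, which allows a share of cells with a UMI of up to 3.70% and 1.40%, and 8 and 45 at 18 months. The share of all genes called in each class is not given. Ighd was higher in 7 classes (median 1.17) and Iglc2 lower in 8 (median -1.94). Ighm was lower in 7 classes (median -0.88) and Igkc in 4 (median -0.53).

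Vascular endothelial cells (2758 and 2332 cells, medians 2303 and 2326.5 UMIs) had 146 and 56.1 CPM of Ighm and 418 and 199.7 CPM of Igkc. Fibroblasts (2338 and 472 cells) had 55.5 and 36.5 CPM of Ighm, 154 and 136 CPM of Igkc, 0.598 and 6.57 CPM of Igha and 17.8 and 3.47 CPM of Jchain. Macrophages (521 and 650 cells) had 298 and 251 CPM of Ighm, and T cells (268 and 263 cells) 363 and 184 CPM. The direction of Igha and of Jchain was the same in these classes, in B cells and in the library as a whole.

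The ratio of Ighm to Igkc was compared across classes. The whole libraries held 32.9 (2 months) and 30.7 (18 months) Ighm UMIs per 100 Igkc UMIs. Vascular endothelial cells held 34.8 (32.5 to 37.3) and 28.1 (24.9 to 31.7), fibroblasts 36.0 (34.0 to 38.0) and 26.9 (22.9 to 31.5) and smooth muscle cells 36.8 (32.8 to 41.1) and 16.3 (10.97 to 23.5). B cells held 32.9 and 32.4, and plasma cells 32.2 and 21.7. These classes stayed close to the library's ratio at 2 months and near or below it at 18 months.

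Leukocyte classes held more Ighm for their Igkc. Macrophages held 92.8 (86.0 to 100.2) and 89.0 (83.2 to 95.2) Ighm UMIs per 100 Igkc UMIs, T cells 91.3 (82.4 to 101.3) and 67.6 (58.8 to 77.5), and neutrophils 109 (92.6 to 128) and 91.5 (81.3 to 103). ILC2 held 55.6 and 102 and dendritic cells 58.4 and 54.5. Among cells with no Cd79a UMI the ratio was 143 and 286 in macrophages, 144 and 133 in T cells, 129.9 and 200 in dendritic cells, 76.5 and 111 in neutrophils and 31.8 and 108 in the whole libraries, while it was 34.1 and 28.3 in vascular endothelial cells and 35.3 and 25.5 in fibroblasts. Over all cells, the intervals of macrophages, T cells and neutrophils lay above the whole-library ratio in both libraries. Among cells with no Cd79a UMI at 18 months, macrophages (286) and T cells (133) lay above the 108 of the whole library, and neutrophils (111) lay close to it. The whole library includes plasma cells, and no intervals are given for cells with no Cd79a UMI. The part of free RNA in these ratios was not tested. A Cd79a UMI was seen in 6.91% and 10.5% of macrophages and in 9.33% and 11.8% of T cells, against 5.37% and 4.59% of vascular endothelial cells.

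**Figure D4:**
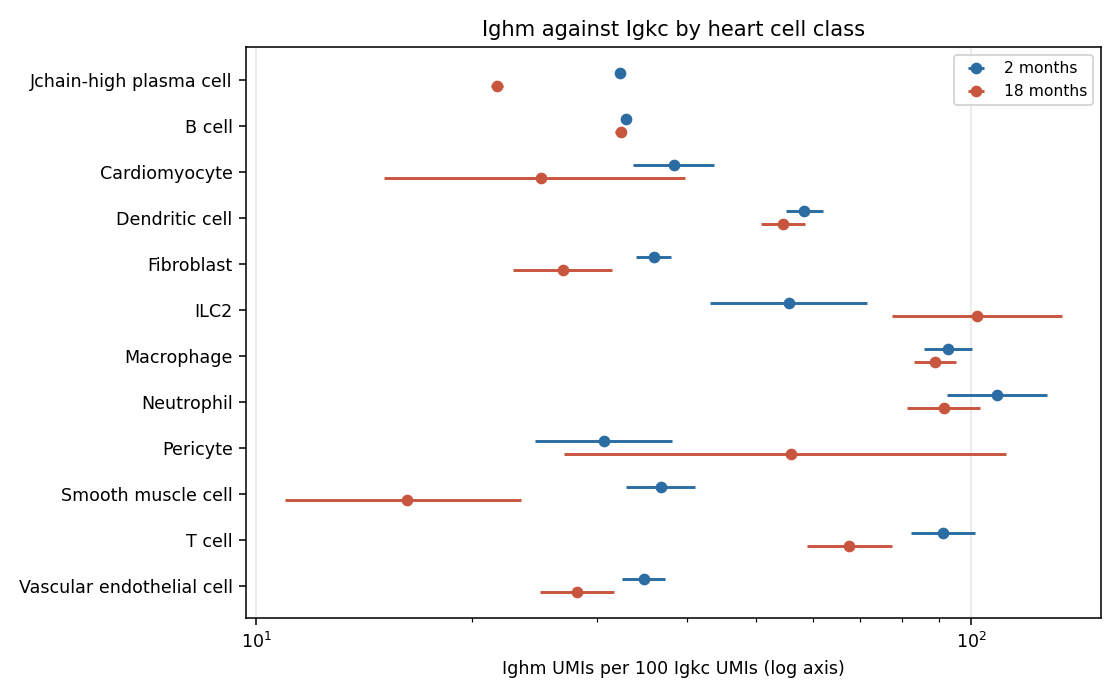
Ighm UMIs per 100 Igkc UMIs in each heart cell class of the 2-month and 18-month libraries, on a log axis, with exact 95% intervals for counting error. Macrophages, T cells and neutrophils lie between 67.6 and 109, to the right of B cells at 32.9 and 32.4 and of vascular endothelial cells at 34.8 and 28.1.

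With every cell thinned to 1000 UMIs, 28.7% and 17.5% of macrophages had an Ighm UMI, 26.8% and 13.5% of T cells and 19.8% and 13.3% of neutrophils, against 15.2% and 5.52% of vascular endothelial cells and 5.07% and 1.51% of fibroblasts. Unthinned, the shares were 77.5% and 63.5% in macrophages, 73.5% and 44.5% in T cells and 43.0% and 15.3% in fibroblasts. Thinning left out 350 and 302 shallower vascular endothelial cells, and 3 to 22 cells in each of the other 4 classes and libraries. For Igkc the order turned: 36.7% and 15.7% of thinned vascular endothelial cells had a UMI, against 21.3% and 11.6% of macrophages.

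The genes whose levels were most like those of the 8 genes were sought over 25 class-by-library profiles, outside the immunoglobulin loci, by Pearson r of log2(CPM + 1). For Ighm they were Mzb1 (0.92), Oosp1 (0.91), Gm34215 (0.91), Wnt10a (0.90) and Il5ra (0.88), and for Igkc Gm34215 (0.96), Wnt10a (0.95), Mzb1 (0.94), Oosp1 (0.93) and Il5ra (0.93). For Jchain they were Prg2 (0.89), Derl3 (0.82), Wnt10a (0.78), Eaf2 (0.76) and Oosp1 (0.75). For Igha the highest values were lower, with Wnt10a (0.73), Clec2g (0.72), Prg2 (0.72), Gm34215 (0.70) and Oosp1 (0.66). The profiles of 1 library share its free RNA and depth, so these are descriptions.

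In the lymph node library, T cells were cells with a called hashtag, no Cd79a UMI and under 10 Jchain UMIs. They numbered 8492, of which 77.7% carried a productive T cell receptor contig. No T cell gene or contig was required, so the name rests on the sort and on these limits. Ighm was the member seen in most of these T cells. Over Hashtag1 to Hashtag8, an Ighm UMI was seen in 54.7%, 55.9%, 54.7%, 53.9%, 51.2%, 59.6%, 37.1% and 44.5% of cells. Hashtag7 was lowest, at 227 CPM, and Hashtag6 highest, at 374 CPM, with a median over hashtags of 290 CPM.

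Igkc varied far more between hashtags than Ighm. Its UMIs were seen in 8.37%, 6.22%, 6.34%, 9.88%, 11.3%, 18.0%, 27.2% and 18.7% of the T cells of Hashtag1 to Hashtag8. Its level ran from 20.9 CPM under Hashtag2 to 187 CPM under Hashtag7, an 8.96-fold range, against a 1.65-fold range for Ighm. Hashtag7 was thus lowest in Ighm and highest in Igkc. Cells with at least 3 Cd79a UMIs made up 3.78% of the Hashtag7 cells and 14.1% of the Hashtag8 cells, and their part in these values was not tested. Thinned to 1000 UMIs, Igkc ran from 2.32% under Hashtag3 to 13.6% under Hashtag7, and Ighm ran from 21.1% under Hashtag7 to 29.0% under Hashtag6, with 86 (Hashtag2) to 336 (Hashtag7) shallower cells left out per hashtag.

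The other members were sparse in lymph node T cells. Ighd was seen in 0.795% (Hashtag7) to 3.42% (Hashtag6) of cells, Igha in 0.114% (Hashtag7) to 0.841% (Hashtag8), Jchain in 0.357% (Hashtag4) to 1.52% (Hashtag6), and Iglc1, Iglc2 and Iglc3 in at most 1.19%, 2.38% and 3.57%. Iglc3 ran from 1.98 CPM under Hashtag3 to 36.9 CPM under Hashtag1, where 162 of 165 UMIs lay in the 268 cells with no receptor contig and the 5 richest cells held 55.8%.

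Ighm in T cells had few variable segments with it. The 5′ kit reads the variable part of a transcript, so a rearranged heavy chain gives Ighv UMIs. In T cells there were 8.10 Ighv UMIs per 100 Ighm UMIs, from 4.10 under Hashtag2 to 18.7 under Hashtag8. T cells with a receptor contig held 6.22 and those without one 20.9. In the Cd79a cells described below there were 339. Over all T cells there were 307 Ighm UMIs per 100 Igkc UMIs, from 121 under Hashtag7 to 1309 under Hashtag2, against 75.9 in Cd79a cells. With a receptor contig this ratio was 353 and without one 163. T cells thus held fewer Ighv UMIs and fewer Igkc UMIs for each Ighm UMI than the Cd79a cells of the same library. No cause of this was tested.

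**Figure D5:**
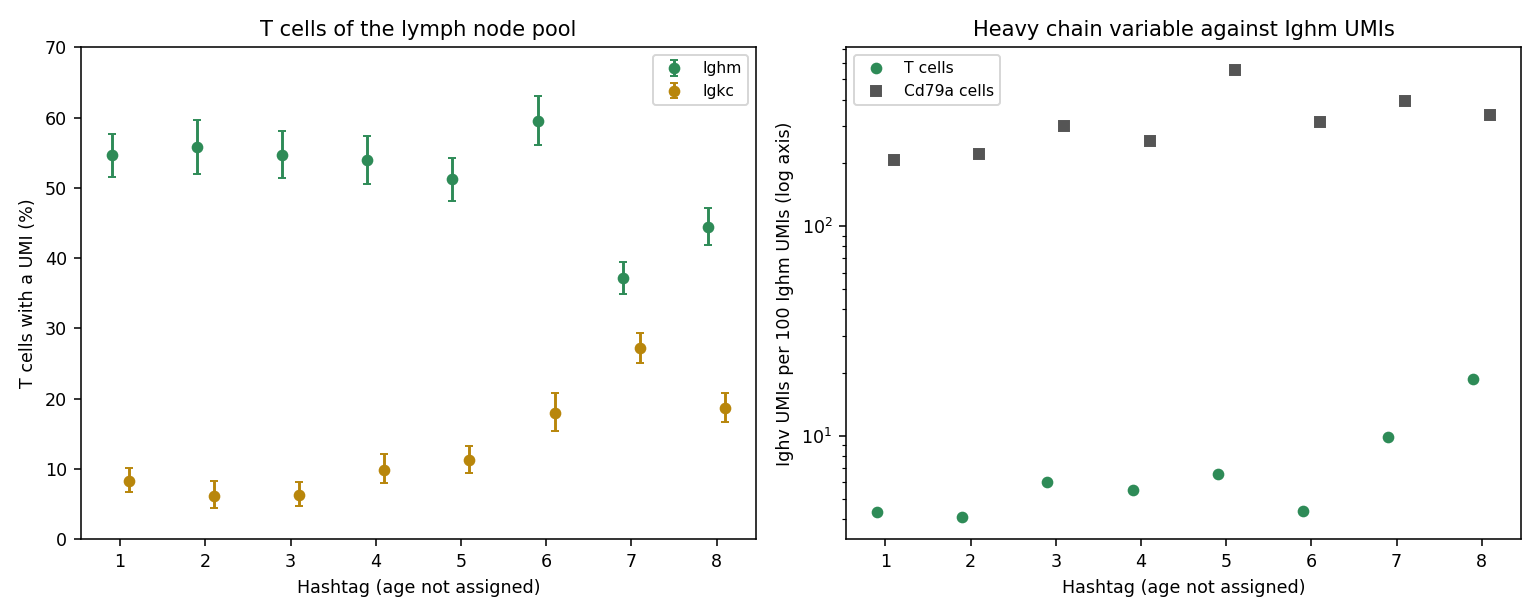
Left, share of lymph node T cells with an Ighm or an Igkc UMI for each of the 8 hashtags, with Clopper-Pearson 95% intervals, and right, Ighv UMIs per 100 Ighm UMIs in T cells and in Cd79a cells on a log axis. Ighm lies between 37.1% and 59.6% and Igkc between 6.22% and 27.2%, and in every hashtag the T cells (4.10 to 18.7) lie below the Cd79a cells (207 to 555).

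The shares were also read apart by receptor contig. Among T cells with a productive contig, 53.6% had an Ighm UMI and 15.5% an Igkc UMI, and Igkc reached 30.1% under Hashtag7. Among those without one, at a median of 1131.5 UMIs against 3634.5, the shares were 34.7% and 13.5%. In CPM the cells without a contig stood higher: Igkc was at 179 CPM against 80.9 CPM, Iglc3 at 115 CPM against 2.35 CPM and Iglc2 at 25.5 CPM against 2.63 CPM, while Ighm was at 293 CPM against 286 CPM. Cells with Cd4 and no Cd8 UMIs (2003 cells) stood at 386 CPM of Ighm, and cells with Cd8 and no Cd4 UMIs (3318 cells) at 201 CPM.

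The sorted T cell library also held B-lineage cells. Cells with at least 3 Cd79a UMIs and a called hashtag numbered 649, from 29 under Hashtag2 to 246 under Hashtag8, or 3.19% (Hashtag1) to 14.1% (Hashtag8) of a hashtag's cells. A productive T cell receptor contig was found in 113 of them. By heavy chain, 403 could be called, and 391 were IgM/IgD, 10 IgG and 2 IgA, so 2.98% (1.55 to 5.14) were switched. By hashtag the switched share ran from 0% to 10.5%, the latter under Hashtag3 with 4 of 38 called cells (2.94 to 24.8). There were 17.0 Ighd UMIs per 100 Ighm UMIs over all of them, from 9.30 under Hashtag8 to 47.4 under Hashtag2.

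The light chain of these cells could not be read from the constant genes. By constant UMIs 20 were kappa, 159 lambda and 389 mixed, and 549 of 649 (84.6%) held UMIs of both Igkc and an Iglc gene. By variable segments, with the same limits, 576 were kappa and 23 lambda (3.84% of 599 called, 2.45 to 5.71). Of the 159 cells called lambda by constant UMIs, 131 were kappa by variable segments. Igkc UMIs were few for the kappa segments present: there were 842 Igkv UMIs per 100 Igkc UMIs in Cd79a cells. The call by variable segments was added after the constant calls were seen.

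Barcodes with at least 10 Jchain UMIs numbered 50 in the lymph node, with a median of 72 and a highest count of 1025. They held 95.1% of the library's Jchain UMIs. Hashtag8 marked 13, Hashtag6 6, Hashtag1 4, Hashtag3 3, Hashtag5 3 and Hashtag4 2, none carried Hashtag2 or Hashtag7, and 19 had no called hashtag. By heavy chain 35 were IgM/IgD, 7 IgG, 1 IgA and 4 mixed, and 3 had too few UMIs. Many of these barcodes shared variable segments, and the 50 held 28 pairs of a heavy and a light segment. Counted once per pair, by the barcode with most Jchain UMIs, 16 were IgM/IgD, 6 IgG, 1 IgA and 3 mixed, and 2 had too few UMIs. IgG reached 2149 Ighg2b UMIs and 2056 Ighg2c UMIs in a barcode, and no Ighg1 or Ighe UMI was seen in the 50. A T cell receptor contig was found in 25 of them.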

How the data were processed

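The counts were used as deposited: the authors' gene-by-barcode matrices hold whole-number UMI counts with no normalization, and Cell Ranger 3.1.0 with mm10 (GRCm38) is named in the submitters' processing notes. Further steps before deposit are not given in the sources used here. Heart barcodes under 200 genes or over 15% mitochondrial UMIs were dropped, and doublets were called with Scrublet in Scanpy 1.11.5 at an expected rate of 8%, which left 10910 of 12235 and 7816 of 8844 barcodes. Lymph node cells had the same limits and no doublet caller. Clusters came from 2000 variable genes, 30 components, 15 neighbours and leidenalg 0.10.2 at resolution 1, without 769 genes that include all immunoglobulin genes. Each of the 32 clusters was named from fixed markers that were 3-fold up, or left unnamed. It was left unnamed with under 3 markers of its own class or with 3 or more of another lineage. The same held where markers of another lineage or cell cycle genes led, where a second class had as many markers, or where a library had under 5 cells. Heart B cells were clustered again with 1000 genes, 15 components and resolution 0.3.

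Levels were summed over cells and compared as CPM between the 2 heart libraries. With 1 library per age there is no replicate and no test between ages, and intervals (95%) cover counting error of the deposited counts only. Ratios in B cells were given for genes with at least 20 UMIs over both libraries. Ratios in the other heart classes had no such limit and needed only a UMI in each library. A hashtag was called from at least 10 UMIs and 70% of a cell's hashtag UMIs. Genes named from lists are those called higher or lower, or are stated as not called, and likeness names the 5 genes of highest r. Gene positions and lambda sequences are from GENCODE M21 on GRCm38. The work ran in Python 3.11.15 with igraph 0.11.9, Matplotlib 3.10.9, SciPy 1.17.1, pandas 2.3.3 and NumPy 2.4.6.

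The 8 genes and all lists were chosen with earlier results of these data known. The limits for naming clusters, the resolution of the B cell subclusters, the hashtag limits, the pairing of variable segments, the light chain call by variable segments, the settings without each heart hashtag and the equal weights of subclusters were chosen after seeing the data. Alternatives covered scaling, cell filters, doublets, thinning, the Cd79a, Jchain and call limits, free RNA subtraction, and leaving out hashtags, the richest cells or a mixed cluster. The ages behind lymph node hashtags were not used here, and some genes of the lists are not reported here by name.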

Additional observations from a re-analysis of the deposited data

Results flagged for a closer look

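In lymph node T cells 3 values of a single hashtag stood far from those of the other 7 hashtags, by the gap to the nearest value against the whole range. Ighd stood at 8.66 CPM under Hashtag6, and the next highest hashtag stood at 5.70 CPM. The share of T cells with an Ighd UMI was 3.42% under Hashtag6, and the next highest was 1.93%. Iglc1 stood at 4.41 CPM under Hashtag8, and the next highest was 1.89 CPM. The counts behind these values were small: 28 Ighd UMIs under Hashtag6, and 24 Iglc1 UMIs under Hashtag8. Chance sets apart a value in about 1 of 20 such groups, and 16 groups were looked at in T cells alone. The lymph node hashtags are not tied to ages or animals in the sources used here.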

How the results depend on the processing

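Of 101 alternative values for the comparisons, 78 moved by less than their counting interval and 23 moved by more. For single genes, 78 of 119 stayed within their counting interval and 41 did not. For the Ighm and Igkc shares of lymph node T cells, the range over the 8 hashtags was used in place of a counting interval. Without the Hashtag09 cells 0 of the 8 genes were higher in heart B cells and 2 were lower, with equal weights of the subclusters 1 was higher, and with free RNA subtracted 3 were higher and 0 lower, since the estimate exceeded the Jchain count at 2 months and set it to 0, so that value shows no direction. The share of all genes called in these settings is not given, so the counts are no result about the 8 genes. Without Hashtag09 the 2-month side held 59 B cells of Hashtag10 and 2 with no called hashtag. The log2 ratio of Ighd against Ighm (1.26) was 0.28 with equal subcluster weights, 0.93 thinned, 0.94 under the stricter cell filter and 0.35 without Hashtag09. That filter took plasma cells to 0.0652% at 2 months and 0.0329% at 18 months. Ighm per 100 Igkc UMIs at 2 and 18 months, thinned, was 140.1 and 122 in macrophages and 130.0 and 90.9 in T cells, and without Cd79a cells it was 143 and 286, and 144 and 133. Thinned, it was 32.6 in vascular endothelial cells at 18 months and 31.7 and 19.2 in fibroblasts. At least 1 Cd79a UMI gave 941 lymph node cells, and leaving out cells with a receptor contig gave 536. Over all settings that gave one, the log2 ratio ran from 0.32 to 1.52 for Ighd, from 0.31 to 2.27 for Igha and from -2.79 to -1.35 for Jchain, none of which changed sign. Of 15 settings, the ratios that were not called fell below 0 in 2 for Ighm, 2 for Igkc, 1 for Iglc1, 6 for Iglc2 and 3 for Iglc3. Without Hashtag09 Iglc3 was at -0.81 (-0.95 to -0.66) and Igkc at -0.06. No paired analysis was possible because each age has 1 heart library and the labels give no shared replicate numbers. Depth limits Igha in the first B cell subcluster, with 3 UMIs at 2 months, and the number of cells limits the plasma cell shares. Of the 8 at 18 months 7 were called, which leaves an IgM/IgD share of called cells between 29.0% and 96.3%.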

Other observations

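The 50 lymph node barcodes with at least 10 Jchain UMIs often shared their variable segments. They held 28 pairs of a heavy and a light segment, 23 of them in 1 barcode each. The pair Ighv3-6 with Igkv12-46 was found in 10 barcodes, whose Ighm counts ran from 38 to 65, Igkc from 25 to 41 and Jchain from 39 to 64, at 3421 to 4934 UMIs per barcode. A T cell receptor contig was found in 9 of these 10, and 6 had no called hashtag. The pair Ighv1-53 with Igkv3-5 was found in 8 barcodes with 172 to 336 Jchain UMIs and 39 to 86 Ighm UMIs; none of the 8 had a called hashtag and 6 had a receptor contig. A further pair, Ighv1-82 with Igkv19-93, was found in 5 barcodes. Over the 5 barcodes of the last pair Ighm ran from 7 to 1694, Igkc from 19 to 1771 and Jchain from 11 to 1025. Whether such barcodes are cells of a clone or barcodes that share the RNA of a cell was not tested.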
